A study of Homo sapiens with 4 samples.

Results

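miR-126 and miR-335 (hsa-miR-126 and hsa-miR-335 in the files) are mature miRNAs that have been reported as suppressors of breast cancer metastasis and as lost in metastatic derivatives of MDA-MB-231. They were taken by exact name, without star names, and are 2 of the 1100 mature miRNA names with a value in every library. Small RNA was sequenced from exosomes of MDA-MB-231 cultures, from the MDA-MB-231 cells, from exosomes of MCF-10A cultures and from the MCF-10A cells, with 1 library for each. MDA-MB-231 is a human breast cancer line of the triple-negative, mesenchymal kind, and was kept in medium with 10% fetal bovine serum. MCF-10A comes from human mammary epithelium, is not transformed, and was kept with 5% horse serum, insulin, EGF, cholera toxin and hydrocortisone. Line and medium therefore cannot be told apart in any comparison between the lines. Exosomes are small vesicles that cells release with RNA inside, and how they were purified is not given in the sources used here. No label marks the MDA-MB-231 libraries as a metastatic derivative. Because each group is 1 library, no difference below could be checked against replicates, and no p-value is given.

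A miRNA is cut from a hairpin whose arms each yield a mature strand, and the strand that is loaded into an Argonaute protein pairs through its seed (bases 2 to 8) with target messages. In the older naming used in these files the star marks the arm thought to be the minor one. miR-126 is best known as the miRNA of endothelial cells, where it supports vessel growth and integrity, and its hairpin lies in an intron of EGFL7, itself an endothelial gene. miR-335 comes from an intron of the imprinted gene MEST and is reported to repress SOX4 and tenascin C in breast cancer cells. The mature strands are shown because each hairpin gave reads under both of its names, and because the arm in excess changed between libraries for miR-335. The sequences are RefSeq's on GRCh38.p14, with the seed in capitals. The files give names without sequences, and miR-126 is taken as the 3p arm and miR-335 as the 5p arm, as those names were used.
miR-126: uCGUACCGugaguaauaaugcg
miR-126*: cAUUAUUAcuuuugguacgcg
miR-335: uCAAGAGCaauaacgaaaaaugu
miR-335*: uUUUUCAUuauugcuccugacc

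No other mature miRNA of the 2370 names in the RefSeq table shared any of these 4 seeds, and each mature sequence occurred in 1 hairpin. In the hairpins below, both mature arms are in capitals.
MIR126: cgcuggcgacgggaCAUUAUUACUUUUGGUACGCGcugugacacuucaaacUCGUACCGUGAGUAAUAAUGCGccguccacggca
MIR335: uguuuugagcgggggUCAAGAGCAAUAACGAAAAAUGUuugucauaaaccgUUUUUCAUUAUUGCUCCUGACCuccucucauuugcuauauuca

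MIR126 lies on the plus strand of chromosome 9, at chr9:136670602-136670686 of GRCh38.p14. In GENCODE release 29 it falls within 5 transcripts of EGFL7 and overlaps 0 of their exons, so it is intronic. MIR335 lies on the plus strand of chromosome 7, at chr7:130496111-130496204. It falls within 13 transcripts of MEST and overlaps 0 of their exons, and on the opposite strand it overlaps 1 exon of the antisense gene AC007938.2.

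The deposited values, log2 of reads per 10000000 miRNA reads plus 1, are called levels. The worth of 1 read was recovered from the low values and gave depths of 1532907 reads for MDA-MB-231 exosome RNA, 7346080 for MDA-MB-231 cell RNA, 1254640 for MCF-10A exosome RNA and 10937884 for the library labelled as MCF-10A cells. That last library stood apart: 29 miRNAs that mark erythroid, leukocyte, liver, muscle, stromal and neural cells made up 46.6% of its reads, compared with 1.60% for MDA-MB-231 exosome RNA, 0.0420% for MDA-MB-231 cell RNA and 0.0552% for MCF-10A exosome RNA. The epithelial miRNAs expected in MCF-10A, the miR-200 family with miR-205 and miR-203, were all above 0 there (7 of 7 names), but held 1.01% of its reads, against 4.41% in MCF-10A exosome RNA. Results that rest on it are therefore given beside MCF-10A exosome RNA as well. Levels are shares of the miRNA reads of a library, so a difference in level and a difference in the amount of other miRNAs cannot be told apart, nor can fewer cells of a type and less RNA per cell.

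miR-126 was the more abundant member in each of the 4 libraries. The level of hsa-miR-126 was 16.23 in MDA-MB-231 exosome RNA, 11.40 in MDA-MB-231 cell RNA, 11.36 in MCF-10A exosome RNA and 17.67 in the library labelled as MCF-10A cells. These levels correspond to 11782, 1984, 330 and 228103 reads in that order of libraries. High read numbers are known only to the rounding of the files, which is 0.347%. The libraries fall into a high pair, MDA-MB-231 exosome RNA and the library labelled as MCF-10A cells, and a low pair, MDA-MB-231 cell RNA and MCF-10A exosome RNA. Within the high pair, the share in the library labelled as MCF-10A cells was 2.71-fold that in MDA-MB-231 exosome RNA (95% counting interval 2.66 to 2.76). Within the low pair, the ratio of MDA-MB-231 cell RNA to MCF-10A exosome RNA was 1.03 (0.913 to 1.16), an interval that holds 1. miR-126 made up 0.769% of reads for MDA-MB-231 exosome RNA (Wilson 95% interval 0.755 to 0.783), where it ranked number 20 of 508 names above 0. It ranked number 94 of 566 in MDA-MB-231 cell RNA, number 83 of 436 in MCF-10A exosome RNA and number 7 of 794, with 2.09% of the reads, in the library labelled as MCF-10A cells. These intervals cover counting error only, since without molecular identifiers PCR copies of 1 molecule cannot be counted apart.

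miR-335 had its lowest level in MDA-MB-231 cell RNA, where a single read was recovered among 7346080. The level of hsa-miR-335 was 7.18 in MDA-MB-231 exosome RNA, 1.24 in MDA-MB-231 cell RNA, 10.08 in MCF-10A exosome RNA and 12.09 in the library labelled as MCF-10A cells. The reads behind these levels numbered 22, 1, 136 and 4767. Every library of MDA-MB-231 thus lay below every library of MCF-10A, unlike the order of miR-126. A single read has an exact Poisson 95% interval of 0.0253 to 5.57 reads, so the level in MDA-MB-231 cell RNA is known only as very low. miR-335 ranked number 243 of 508 names above 0 in MDA-MB-231 exosome RNA, number 118 of 436 in MCF-10A exosome RNA and number 120 of 794 in the library labelled as MCF-10A cells, and was tied with the lowest names above 0 in MDA-MB-231 cell RNA. Each step in its order of levels had a counting interval that excluded 1.

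**Figure D1:**
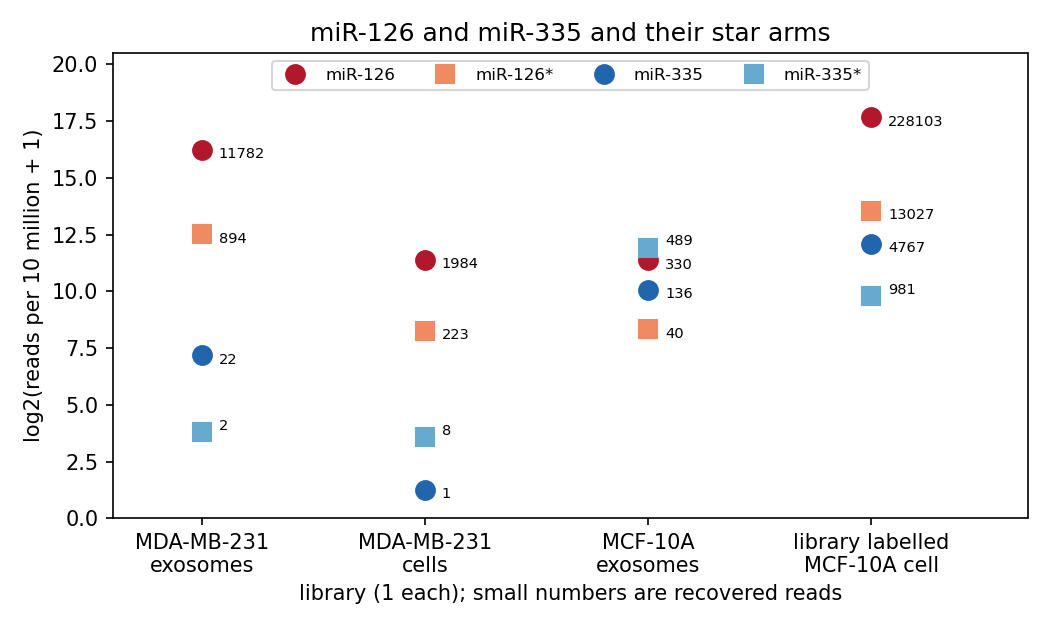
Levels of miR-126 and miR-335 (circles) and of their star arms (squares) in the 4 libraries, as log2 of reads per 10000000 plus 1, with the recovered reads beside each point. miR-126 is high in MDA-MB-231 exosome RNA and in the library labelled as MCF-10A cells, while miR-335 has 22 reads and 1 read in the MDA-MB-231 libraries, against 136 and 4767 in those of MCF-10A.

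The ratio of the members to each other within a library does not depend on how libraries were scaled. There were 536 reads of miR-126 for each read of miR-335 in MDA-MB-231 exosome RNA (95% counting interval 354 to 855) and 1984 in MDA-MB-231 cell RNA (356 to 78403). In MCF-10A exosome RNA the ratio was 2.43 (1.98 to 2.99), and in the library labelled as MCF-10A cells it was 47.9 (46.5 to 49.3). The intervals of both MDA-MB-231 libraries lie above those of both MCF-10A libraries. With the arms of each hairpin summed, miR-126 reads fell below miR-335 reads in MCF-10A exosome RNA, at a ratio of 0.592 (0.519 to 0.674).

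Between exosomes of the lines the members went opposite ways. miR-126 was higher in MDA-MB-231 exosome RNA by a log2 difference of 4.87, or 29.2-fold by recovered reads (26.2 to 32.7). miR-335 was lower in MDA-MB-231 exosome RNA, by a log2 difference of −2.90, or 7.55-fold (4.79 to 12.5). At least 4-fold size, the call used throughout, was reached by 29.3% of the 505 names with 10 or more reads per 10000000 in the higher direction and by 19.0% in the lower direction, so a call of either kind was common. The median difference over those names was 0.59. A larger positive difference than that of miR-126 was seen for 69 names, and a more negative one than that of miR-335 for 70.

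The comparison of cells rests on the library labelled as MCF-10A cells. Both members were lower in MDA-MB-231 cell RNA than in that library. The log2 difference was −6.27 for miR-126, a read ratio 77.2-fold lower (73.9 to 80.7), and −10.85 for miR-335, with 1 read against 4767, or 3202-fold lower (574 to 126483). Of 665 names, 54.3% were at least 4-fold lower and 17.4% at least 4-fold higher, and the median difference was −2.83. miR-126 lay inside the bulk of these names, since 176 had a more negative difference, while 33 lay below miR-335. With upper-quartile scaling the split over all names moved to 207 higher and 285 lower, against 116 and 361 as deposited.

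MCF-10A exosome RNA gives a second reference for MDA-MB-231 cell RNA, without that library. There miR-126 had a log2 difference of 0.04 (1.03-fold, 0.913 to 1.16), so the difference seen against the library labelled as MCF-10A cells was not detectable here. miR-335 kept a large one, at −8.84, with 1 read against 136, or 796-fold lower (141 to 31680). Of 482 names, 26.6% were at least 4-fold higher and 19.3% at least 4-fold lower, and 4 had a more negative difference than miR-335. This contrast crosses cells with exosomes, so line and fraction cannot be told apart in it.

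Exosomes of MDA-MB-231 held more of both members than the cells they came from. The log2 difference was 4.83 for miR-126, or 28.5-fold (27.1 to 29.9). For miR-335 it was 5.94, with 22 reads against 1, or 105-fold (17.0 to 4351). In this comparison 22.2% of 499 names were at least 4-fold higher and 13.4% at least 4-fold lower in exosomes, with a median of −0.09. Names with a larger difference numbered 55 for miR-126 and 36 for miR-335. The log2 differences of miR-335 that rest on its single read depend on the pseudocount: with 10 in place of 1 the value was 3.76 here, −8.59 for MDA-MB-231 cell RNA over the library labelled as MCF-10A cells and −6.59 over MCF-10A exosome RNA. Over all names the 111 higher and 67 lower became 97 and 101 under upper-quartile scaling.

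In MCF-10A the order was the reverse. miR-126 was lower in exosomes than in the library labelled as MCF-10A cells by a log2 difference of −6.31, or 79.3-fold (71.2 to 88.6). For miR-335 the difference was −2.01, or 4.02-fold lower (3.39 to 4.80), just past the call. Here 57.2% of 661 names were at least 4-fold lower and 15.4% higher, with a median of −3.27, so miR-335 stood 1.26 above the median name. Upper-quartile scaling turned the difference of miR-335 to 0.46 and gave 205 higher and 294 lower names, against 102 and 378 as deposited. The 5 comparisons share libraries and are not independent of each other.

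**Figure D2:**
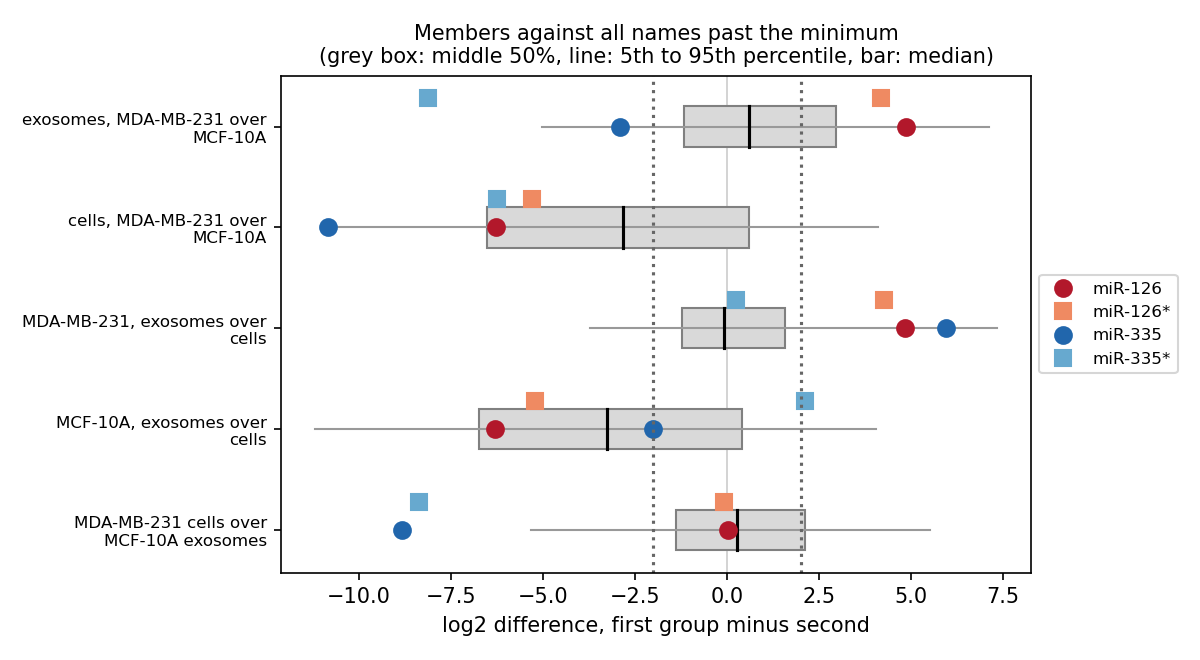
Log2 differences of the members (circles) and their star arms (squares) in the 5 comparisons, first group minus second, over the middle 50% (box), the 5th to 95th percentile (line) and the median (bar) of all names past the minimum. Dotted lines mark 4-fold size; miR-335 reaches −10.85 and −8.84 in the comparisons with MDA-MB-231 cell RNA as the first group, while miR-126 lies at −6.27 and 0.04 there.

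The star arms show where the members followed their hairpins and where they did not. miR-126* followed miR-126, with levels of 12.51 in MDA-MB-231 exosome RNA, 8.25 in MDA-MB-231 cell RNA, 8.32 in MCF-10A exosome RNA and 13.54 in the library labelled as MCF-10A cells. It held a small share of the reads of its hairpin throughout. The share was 7.05% in MDA-MB-231 exosome RNA (exact binomial 95% interval 6.61 to 7.51), 10.1% in MDA-MB-231 cell RNA (8.88 to 11.4), 10.8% in MCF-10A exosome RNA (7.84 to 14.4) and 5.40% in the library labelled as MCF-10A cells (5.31 to 5.49). Both libraries rich in miR-126 had the smaller shares, and the intervals of the rich and the poor libraries do not overlap.

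miR-335* was, like miR-335, lower in each MDA-MB-231 library than in each MCF-10A library, but within MCF-10A it was higher in exosomes, where miR-335 was lower. Its levels were 3.81 in MDA-MB-231 exosome RNA, 3.57 in MDA-MB-231 cell RNA, 11.93 in MCF-10A exosome RNA and 9.81 in the library labelled as MCF-10A cells, from 2, 8, 489 and 981 reads. The star arm was the major one in MDA-MB-231 cell RNA, with 8 of 9 reads (88.9%, exact interval 51.8 to 99.7), and in MCF-10A exosome RNA, with 489 of 625 reads (78.2%, 74.8 to 81.4). It was the minor one in MDA-MB-231 exosome RNA, with 2 of 24 reads (8.33%, 1.03 to 27.0), and in the library labelled as MCF-10A cells, with 981 of 5748 reads (17.1%, 16.1 to 18.1). The libraries with miR-335 as the major arm are the same pair that was rich in miR-126.

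Set against each other, the star-to-member ratio of miR-335 was 39.6-fold lower in MDA-MB-231 exosome RNA than in MCF-10A exosome RNA (exact conditional 95% interval 9.47 to 349). Within MDA-MB-231 it was 88.0-fold lower in exosomes than in cells (5.47 to 4066), on few reads. Within MCF-10A it was 17.5-fold higher in exosomes than in the library labelled as MCF-10A cells (14.2 to 21.5). For MDA-MB-231 cell RNA over MCF-10A exosome RNA the ratio was 2.22 (0.294 to 99.4), an interval that holds 1. These ratios lie within a library and do not depend on scaling, and they compare libraries, not conditions.

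**Figure D3:**
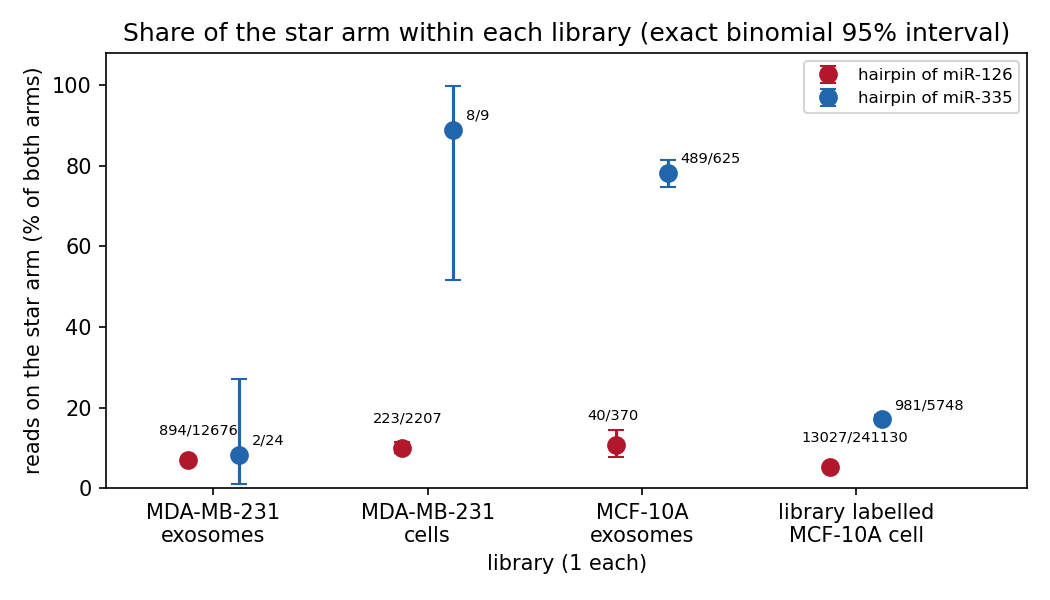
Reads on the star arm as a percentage of the reads of both arms, for the hairpins of miR-126 and miR-335 in each library, with exact binomial 95% intervals and the reads (star over both arms). The star share of miR-335 is 88.9% in MDA-MB-231 cell RNA and 78.2% in MCF-10A exosome RNA, against 8.33% and 17.1% in the other libraries, while that of miR-126 lies between 5.40% and 10.8%.

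Over both arms, the hairpin of miR-335 gave 24 reads in MDA-MB-231 exosome RNA and 9 in MDA-MB-231 cell RNA, against 625 in MCF-10A exosome RNA and 5748 in the library labelled as MCF-10A cells. In exosomes it was 31.8-fold lower for MDA-MB-231 than for MCF-10A (21.2 to 50.04), a larger gap than for miR-335 alone. It was 429-fold lower in MDA-MB-231 cell RNA than in the library labelled as MCF-10A cells (226 to 939), and 407-fold lower than in MCF-10A exosome RNA (213 to 893). Within MDA-MB-231 the hairpin was 12.8-fold higher in exosomes than in cells (5.73 to 31.2). Within MCF-10A the ratio of exosomes to the library labelled as MCF-10A cells was 0.948 (0.871 to 1.03), an interval that holds 1, so the 4.02-fold difference of miR-335 there was not detectable over both arms. For the hairpin of miR-126, the arms summed gave 28.0-fold higher reads in MDA-MB-231 exosome RNA than in that of MCF-10A (25.3 to 31.2), close to miR-126 alone.

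The libraries rich in miR-126 were also those rich in miRNAs of blood and stroma and in miR-122. The 4 erythroid miRNAs, with miR-451 of red cells at their head, summed to 31786 reads per 10000000 in MDA-MB-231 exosome RNA, 191 in MDA-MB-231 cell RNA, 208 in MCF-10A exosome RNA and 143032 in the library labelled as MCF-10A cells. The 4 leukocyte miRNAs summed to 31095, 1169, 1495 and 40349 in that order, and the 7 stromal ones, led by miR-143, to 65162, 84.5, 200 and 3178805. Of the stromal names, miR-199a-3p and miR-199b-3p had the same reads in every library (578, 6, 2 and 181464). The same reads may thus stand under both names in this sum and in the 46.6% given above. miR-122, the main miRNA of liver, had 4342 reads in MDA-MB-231 exosome RNA, 15 in MDA-MB-231 cell RNA, 10 in MCF-10A exosome RNA and 21458 in the library labelled as MCF-10A cells. The other liver name, miR-885-5p, was at 0 in all but the library labelled as MCF-10A cells, where it had 161 reads. All 4 erythroid, 4 leukocyte and 7 stromal names were above 0 in both of these libraries. In MDA-MB-231 cell RNA miR-144, miR-150, miR-223 and miR-199b-5p were at 0, and in MCF-10A exosome RNA miR-145, miR-199a-5p, miR-199b-5p and miR-214 were. The 7 muscle names summed to 1810 in MDA-MB-231 exosome RNA, 10.9 in MDA-MB-231 cell RNA, 15.9 in MCF-10A exosome RNA and 1243177 in the library labelled as MCF-10A cells, with miR-133b, miR-208a and miR-208b at 0 in MDA-MB-231 exosome RNA. The muscle and stromal lists thus had the same high pair, with far more in the library labelled as MCF-10A cells, while the neural and epithelial lists did not. The 5 neural names summed to 1723, 2723, 3524 and 35289, with miR-124 at 0 in all but the library labelled as MCF-10A cells. The 7 epithelial names summed to 2318, 4593, 440970 and 100763. The part of RNA from other cells, or from serum, in the levels of miR-126 and miR-335 was not tested.

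**Figure D4:**
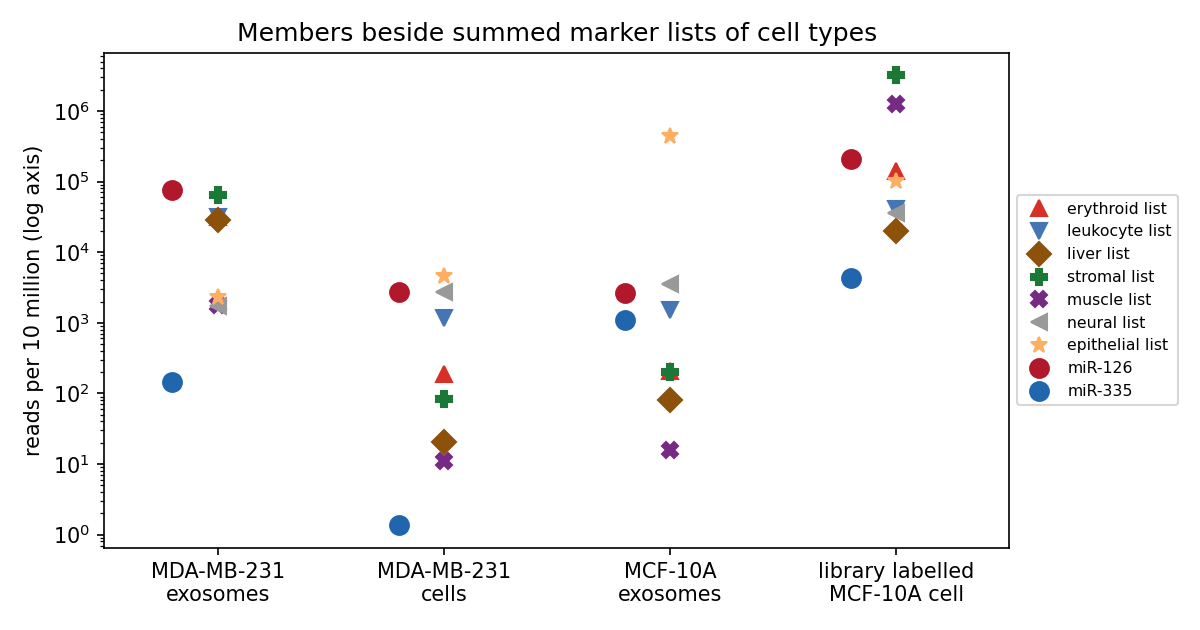
Reads per 10000000 (log axis) of miR-126 and miR-335 (circles) beside the summed reads of marker lists for 7 cell types in each library. miR-126 is high in the same libraries, MDA-MB-231 exosome RNA and the library labelled as MCF-10A cells, as the erythroid, leukocyte, muscle and stromal lists and the liver list, whose value in MDA-MB-231 exosome RNA is miR-122 alone.

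The names most like each member were ranked by the Euclidean distance between log2 levels over the 4 libraries, after each name's own mean was taken off, among 565 other names with 50 or more reads per 10000000 in 1 library. For miR-126 they were miR-379* (distance 0.25), miR-376b (0.46), its own star arm miR-126* (0.88), miR-409-5p (0.93) and miR-433 (1.26). Apart from miR-126*, these are names of the imprinted 14q32 cluster that had 0 reads in MDA-MB-231 cell RNA and in MCF-10A exosome RNA and only 4 to 8 reads in MDA-MB-231 exosome RNA, so their distances rest on few reads and on the pseudocount. For miR-335 they were miR-203 (1.67), a miRNA of skin epithelium, miR-196b (1.77), a miRNA of a HOX locus, miR-375 (2.15), miR-369-5p (3.45) and miR-323-3p (3.45). The last of these, miR-369-5p and miR-323-3p, are also of the 14q32 cluster and had 0 to 3 reads in every library but the one labelled as MCF-10A cells, so their distances too rest on few reads and on the pseudocount. In MDA-MB-231 cell RNA miR-335 itself had 1 read, and miR-203, miR-196b and miR-375 had 6, 1 and 2. All the distances to miR-335 therefore depend in part on few reads and on the pseudocount. miR-196b had the same 22 reads and 1 read as miR-335 in the MDA-MB-231 libraries, and 521 reads in MCF-10A exosome RNA and 3981 in the library labelled as MCF-10A cells. miR-335* came only as number 19 for miR-335, at 4.99. The members were far from each other, at 6.93. These likenesses run over 4 libraries and are descriptions.

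**Figure D5:**
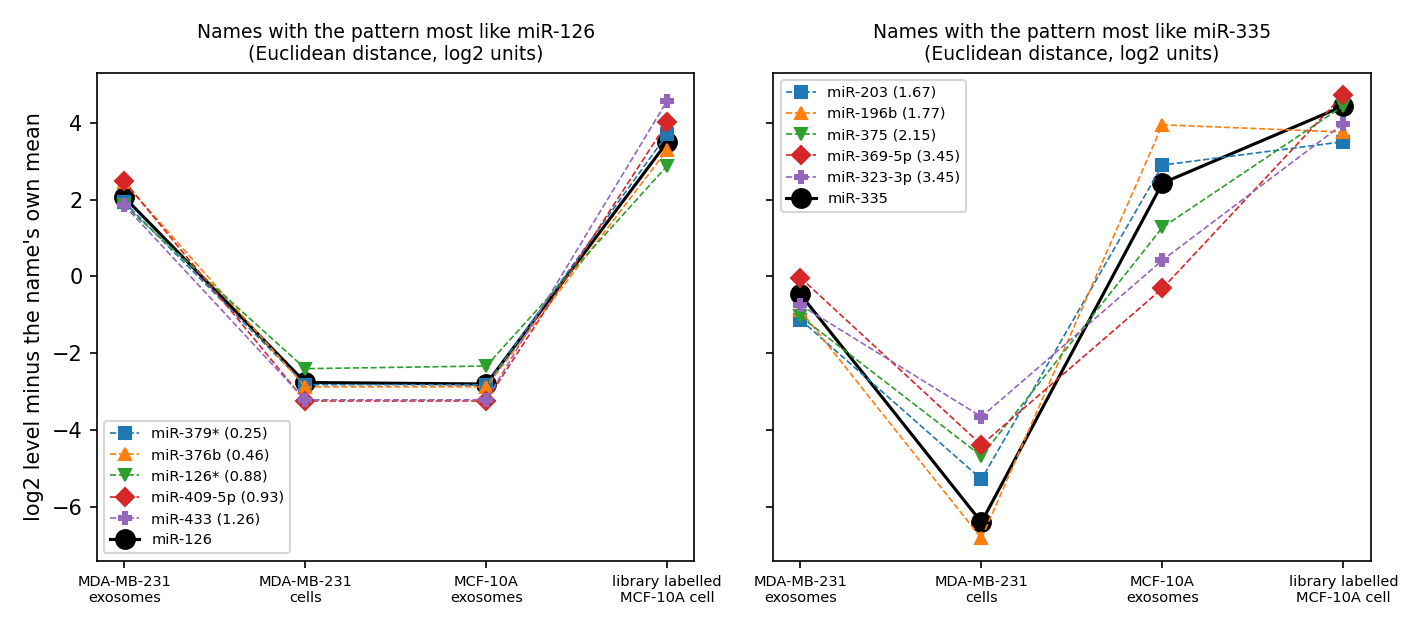
Levels minus each name's own mean over the 4 libraries (log2 units) for miR-126 (left, black) and miR-335 (right, black) with the 5 names closest to each, distances in the legends. The names near miR-126 are high in MDA-MB-231 exosome RNA and in the library labelled as MCF-10A cells, and those near miR-335 are lowest in MDA-MB-231 cell RNA.

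Other reported suppressors of metastasis were set beside the members, in a list of 14 names. In exosomes 14 of 14 passed the minimum, of which 10 were lower for MDA-MB-231 by 4-fold or more, 2 were higher and 2 lay within. Over all 505 names, 19.0% were lower and 29.3% higher by that size. The median difference of the list was −3.03, against 0.59 over all names. miR-206, a muscle miRNA that is also reported as a suppressor, had 12 reads in MDA-MB-231 exosome RNA and 0 in MCF-10A exosome RNA, at least 3.27-fold higher with MCF-10A exosome RNA set at 3 reads, so its place among the names 4-fold higher depends on the pseudocount. miR-146a, which damps NF-κB signalling, was the other higher name, with a log2 difference of 11.62. The lower names included miR-31 (0 against 129 reads, at least 52.5-fold lower), miR-200c, which holds cells in an epithelial state (−8.74), and miR-205 of basal epithelium (−9.75). Of the 10 lower names, 6 are also on the epithelial list, of which 7 of 7 names were lower (median −4.03), so the count of lower suppressors is mostly a count of epithelial miRNAs.

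In MDA-MB-231 cell RNA against the library labelled as MCF-10A cells, 1 of the 14 was higher, 11 were lower and 2 lay within (median −5.30, against −2.83 over all names). Over all 665 names, 17.4% were at least 4-fold higher and 54.3% at least 4-fold lower, so a fall was common there. Against MCF-10A exosome RNA, 13 passed the minimum in MDA-MB-231 cell RNA, with 2 higher, 6 lower and 5 within (median −1.73, against 0.27). Over all 482 names, 26.6% were higher and 19.3% lower. miR-206, with 1 read against 0, was the name that did not pass. Within MDA-MB-231, 2 of 13 were higher in exosomes than in cells, 2 lower and 9 within (median −0.25, against −0.09 over all names), near the 22.2% and 13.4% of all names. One of the higher names, miR-205, had 2 reads in exosomes and 0 in cells, both within the 3 reads possible at a count of 0. miR-206 had 12 reads in exosomes and 1 read in cells, or 57.5-fold more (8.51 to 2458), the same direction as both members. Within MCF-10A, 2 of 14 were higher in exosomes than in the library labelled as MCF-10A cells, 6 lower and 6 within (median −1.40), beside 15.4% higher and 57.2% lower over all names (median −3.27).

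Of 9 reported promoters of metastasis, 7 passed the minimum between exosomes, with 3 higher in MDA-MB-231, 1 lower and 3 within (median 0.76), beside 29.3% higher and 19.0% lower over all names (median 0.59). miR-10b, which represses HOXD10, had 2692 reads in MDA-MB-231 exosome RNA, 16 in MDA-MB-231 cell RNA, 24 in MCF-10A exosome RNA and 104948 in the library labelled as MCF-10A cells. miR-155 of inflammatory signalling had 269, 3, 7 and 2955 reads in that order. Both therefore shared the high and the low pair of miR-126, although their reported role is the opposite one. Not every promoter did. In the same order of libraries, miR-182 had levels of 15.02, 15.38, 18.16 and 11.29. Those of miR-9 were 9.25, 10.72, 6.81 and 13.63. The share of all names with the pairs of miR-126 was not counted. miR-21, the most abundant promoter, lay between 19.57 and 21.94 in level and was within 4-fold in 4 of the 5 comparisons. In cells the 9 names split into 3 higher and 6 lower in MDA-MB-231 (median −2.96), beside 17.4% and 54.3% over all names (median −2.83). Within MDA-MB-231, 2 of 7 were higher in exosomes than in cells and 0 lower, beside 22.2% and 13.4% over all names.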

How the data were processed

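Small RNA was sequenced in 4 libraries, 1 for each line and fraction, from RNA extracted with TRIzol reagents, per the labels' protocols. The submitters' processing notes list Novoalign, edgeR and hg18 and state neither role nor version. Counting and miRBase release are not given in the sources used here. Values as deposited by the authors are log2 values with 2 decimals, worked out from the files to be log2 of reads per 10000000 plus 1: their linear sums were 9992361 to 10004141. The worth of 1 read (0.914 to 7.97 reads per 10000000) was the step at which most low values were whole, and whole reads lay within rounding for 100% of the 40.1% to 65.7% of nonzero names low enough to resolve. Values of all columns were used.

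Differences are those of the deposited log2 values, among names with 10 or more reads per 10000000 in 1 library, called at a log2 difference of 2. Read ratios carry exact conditional binomial 95% intervals (Python 3.11.15, scipy 1.17.1). The recovery and the calls were tested on simulated data, in which the changes put in were all much larger than 4-fold. Changes near the 4-fold call were not part of that test. Members, lists and tests were chosen with earlier results of these data known. Named miRNAs were the members, their star names, the 5 names nearest to each in pattern, 8 names of the metastasis lists and up to 3 of each marker list; others that are named were chosen after their values were seen. Sequences came from RefSeq (4 of 4 names matched).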

Additional observations from a re-analysis of the deposited data

Results flagged for a closer look

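Exosomes over cells went up in MDA-MB-231 and down in MCF-10A for 3 of the 4 names. The log2 differences were 4.83 in MDA-MB-231 and −6.31 in MCF-10A for miR-126, which leaves 11.14 between them. For miR-126* they were 4.26 and −5.22, which leaves 9.48, and for miR-335 5.94 and −2.01, which leaves 7.95. The fourth name, miR-335*, had 0.24 and 2.12, which leaves −1.88. miR-126 and miR-126* are arms of the same hairpin. In MDA-MB-231, 22.2% of 499 names were at least 4-fold higher in exosomes. The share of all names that went up in MDA-MB-231 and down in MCF-10A was not counted. With 1 library per group the difference between the lines was not tested. The MCF-10A side uses the library labelled as MCF-10A cells, in which 46.6% of reads were miRNAs of other cell types, and where 57.2% of all 661 names were at least 4-fold lower in exosomes (median −3.27), so a fall there was the usual outcome. For miR-335 the MCF-10A side was 0.46 under upper-quartile scaling and −0.08 with both arms summed, and the difference between the lines was 5.76 with a pseudocount of 10.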

How the results depend on the processing

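Of 40 alternatives for the log2 differences of the members, 38 kept the 4-fold call. Both exceptions were miR-335 between MCF-10A exosome RNA and the library labelled as MCF-10A cells (−2.01), which was 0.46 under upper-quartile scaling and −0.08 with both arms summed. Upper-quartile scaling gave miR-126 4.12 and miR-335 −3.65 between exosomes, and miR-126 −4.17 between cells, 4.30 within MDA-MB-231 and −3.84 within MCF-10A. It moved the median of all names by −0.75 between exosomes, 2.06 between cells, −0.53 within MDA-MB-231 and 2.43 within MCF-10A. A pseudocount of 10 kept every call of the members but gave miR-335 −8.59 between cells, 3.76 within MDA-MB-231 and −6.59 for MDA-MB-231 cell RNA over MCF-10A exosome RNA. Leaving other cell types out of the denominator gave miR-126 −7.17 between cells and −7.21 within MCF-10A, miR-335 −2.91 within MCF-10A, and 12.07 for the difference of the exosome folds of miR-126. Both arms summed, an alternative chosen after seeing the data, gave −4.98 for miR-335 between exosomes and −6.20 for miR-126 between cells. Names called in all numbered 143 between exosomes with 10 recovered reads and a counting interval required, against 244 as deposited, 117 within MDA-MB-231, against 178, and 140, against 221, for MDA-MB-231 cell RNA over MCF-10A exosome RNA. With a minimum of 50 reads per 10000000 the last 2 were 117 and 142, and calling at a log2 difference of 1 gave 302 within MDA-MB-231. By Pearson correlation 3 of the 5 names nearest to each member stayed. No paired analysis was possible because each group has 1 library, and for the same reason no library could be left out. At a count of 0 as many as 3 reads are possible, or 19.6, 4.08, 23.9 and 2.74 reads per 10000000 in MDA-MB-231 exosome RNA, MDA-MB-231 cell RNA, MCF-10A exosome RNA and the library labelled as MCF-10A cells, so miR-335 in MDA-MB-231 cell RNA lies under what the exosome libraries could detect.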

Other observations

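Among names with many reads, the leukocyte miRNA miR-142-3p, singled out after its values were seen, came next after the 5 nearest to miR-126 (number 6, distance 1.31). Its levels were 14.65 in MDA-MB-231 exosome RNA, 10.15 in MDA-MB-231 cell RNA, 10.10 in MCF-10A exosome RNA and 14.83 in the library labelled as MCF-10A cells. MDA-MB-231 exosome RNA held 22.6-fold more of it than MDA-MB-231 cell RNA (95% counting interval 21.0 to 24.4), beside 28.5-fold for miR-126. Its log2 difference there, 4.50, was the lowest of the 4 leukocyte names (median 8.32, highest 10.36). All 4 were at least 4-fold higher in exosomes, beside 22.2% of all names. The ratio of miR-142-3p in MDA-MB-231 cell RNA to that in MCF-10A exosome RNA was 1.03 (0.861 to 1.25), as close to 1 as that of miR-126. The leukocyte list as a whole was not so close in that comparison. Of its 4 names, 2 were at least 4-fold lower, 0 higher and 2 within (median −4.345), beside 19.3% lower and 26.6% higher over all names. miR-142-5p, the other name within, had a ratio of 0.267 (0.137 to 0.535).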
